A study of Mus musculus with 56 samples.

Results

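The claudins and cadherins are the adhesion proteins of the junctions between epithelial cells, and their mRNA levels were followed in mouse liver after loss of miR-122, the most abundant microRNA of the hepatocyte. The members are all genes of the RNA-seq table whose symbol is Cldn or Cdh followed by digits and nothing more. There were 47 of them among 21888 gene symbols, 23 claudins and 24 cadherins, so protocadherins, desmosomal cadherins and other cadherin-like genes with other symbols were not included. The rule reads symbols alone.

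RNA-seq libraries of 14 livers were analysed, 1 library per mouse, all of strain background 129Sv/J. The floxed mice carry LoxP sites around miR-122 and were either uninjected (day 0, n = 3) or received rAAV8-Ef1a-Cre, an adeno-associated virus that expresses the Cre recombinase from the general Ef1a promoter, by tail vein. They were taken 21 days (n = 3), 45 days (n = 3), 100 days (n = 1) or 200 days (n = 1) later, and the last 2 mice were tested as 1 group of different ages after Cre. A further group of 3 mice were germline miR-122 knockouts, which were set against the floxed day 0 livers, so the knockout and any other difference between the mouse lines cannot be told apart. The day 0 mice received no virus, so loss of miR-122 and exposure to rAAV8-Ef1a-Cre cannot be told apart in the injected mice. Sex is not given in the labels, nor the age of the mice at each harvest.

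In small RNA libraries of the floxed mice, miR-122 made up 66.4 ± 7.06% of microRNA reads at day 0 (SD, n = 3), 11.3 ± 2.70% at day 21 and 0.839 ± 0.426% at day 45 (n = 3 each), where an exact two-sided permutation test of 3 against 3 gives p = 0.1 for each time, the smallest it can give. The single livers of days 100 and 200 held 4.46% and 19.1%. No small RNA library of the germline knockout was analysed here. The 1-fragment step of the FPKM values gives an effective depth, in units of 1e6 fragments per library. It was 45.9 to 50.5 at day 0, 32.2 to 40.0 at day 21, 35.6 to 48.3 at day 45, 36.0 and 36.4 for the late mice, and 21.3 to 26.6 in the knockout. This depth includes the library scaling of the FPKM and is not the number of fragments sequenced. Knockout replicate C stood apart from the rest of its group. Its profile over 11354 genes correlated with knockout replicates A and B at 0.881 and 0.895, with the day 45 livers at 0.942 to 0.955 and with the day 0 livers at 0.927 to 0.932, whereas A and B correlated with each other at 0.986. Whether its label is right was not tested, so every value over 3 knockout livers rests on that label. Knockout calls of the claudins and cadherins averaging 1 FPKM or more over all libraries are given with and without replicate C. Those of the scarcer members and of the lists of other genes are given over 3 livers only. The hepatocyte marker Apoa1 was at a mean of 12200 FPKM at day 0, while Alb was listed at 0 in every library and Serpina1a in every day 0 library, and neither is read on its own. The hepatocyte marker sum, which includes Serpina1a where it was listed above 0 (day 100 and the knockout), was 30300 to 34200 FPKM at day 0, 25700 to 31600 at day 45, 20200 and 28100 late and 28900 to 41900 in the knockout. Apoa1 was called lower late (-0.94, limma adjusted p = 0.036) and Apob lower in the knockout (-1.80, limma adjusted p = 0.012), and their part in the results that follow was not tested.

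Claudins span the membrane 4 times and form the strands of the tight junction. Some of them seal the gap between neighbouring cells and others line pores for ions and water. In the liver, tight junctions close off the bile canaliculus between hepatocytes and the lumen of the bile ducts. Cadherins are calcium-dependent adhesion receptors of the adherens junction, tied to actin through the catenins. Hepatocytes carry both E-cadherin and N-cadherin, cholangiocytes (the epithelial cells of the bile duct) carry E-cadherin, and endothelial cells carry VE-cadherin.

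The genes lie in several small clusters. In the mm9 coordinates of the files Cldn4 (chr5:135420993-135422804, minus strand) lies 39.3 kb from Cldn3 (chr5:135462084-135463346, plus strand), and Cdh3 lies 46.5 kb from Cdh1 on chromosome 8, which holds 11 of the 47 members. Cldn6 (chr17:23816332-23819414, plus strand) and Cldn9 face each other tail to tail with 136 bases between them. The libraries are not stated to have been counted by strand, so reads of these neighbours may not be fully separated. Cldn9 was listed at 0 in 13 of the 14 libraries. Cldn7 (chr11:69778281-69781388, plus strand) and Cldn8 (chr16:88561071-88563428, minus strand) are the other scarce claudins described here, and the nearest member to Cldn8 is Cldn17 at 53.8 kb.

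The promoters of Cldn4, Cldn6 and Cldn7 are shown because these 3 claudins rose together in 3 of the comparisons given further on. Each window is the RefSeq sequence of GRCm38.p6 from 250 bases before to 50 bases after a transcription start, read 5′ to 3′ along the gene. The capitals mark the E-box letters CACCTG and CAGGTG, which are the same motif read on either strand and are the letters that the Snail and Zeb repressors of epithelial genes bind.
Cldn4, chr5:134946885-134947184, minus strand: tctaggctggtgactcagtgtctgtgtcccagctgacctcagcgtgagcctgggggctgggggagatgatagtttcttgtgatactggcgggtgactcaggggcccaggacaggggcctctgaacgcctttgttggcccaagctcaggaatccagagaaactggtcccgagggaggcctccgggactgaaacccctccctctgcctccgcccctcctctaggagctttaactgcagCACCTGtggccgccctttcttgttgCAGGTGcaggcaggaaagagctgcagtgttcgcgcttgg
Cldn6, chr17:23679115-23679414, plus strand: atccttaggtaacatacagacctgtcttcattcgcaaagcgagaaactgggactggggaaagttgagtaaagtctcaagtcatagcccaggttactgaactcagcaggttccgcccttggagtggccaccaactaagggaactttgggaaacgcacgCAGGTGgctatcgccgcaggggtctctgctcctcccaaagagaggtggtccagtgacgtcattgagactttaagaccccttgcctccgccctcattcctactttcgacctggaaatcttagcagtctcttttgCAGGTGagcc
Cldn7, chr11:69965171-69965470, plus strand: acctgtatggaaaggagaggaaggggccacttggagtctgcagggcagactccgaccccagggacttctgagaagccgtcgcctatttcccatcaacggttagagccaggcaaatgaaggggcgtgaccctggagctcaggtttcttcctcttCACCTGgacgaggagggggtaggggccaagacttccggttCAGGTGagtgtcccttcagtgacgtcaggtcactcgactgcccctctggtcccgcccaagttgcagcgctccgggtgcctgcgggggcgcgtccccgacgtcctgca

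Relative to the start, the letters begin at positions -14 and 11 in Cldn4, -93 and 40 in Cldn6, and -97 and -57 in Cldn7. Cldn7 has a second start whose window holds none. Promoter windows were found for 32 of the 47 members, and 6 of these 32 (18.8%) hold the letters in at least 1 window, namely Cdh7, Cldn3, Cldn4, Cldn6, Cldn7 and Cldn14. Among all 27025 genes of the promoter table the share was 22.6%, and the letters say nothing about binding. Among the 14 members that could be tested, 9 had a window and 5 of these held the letters. No window was listed for Cldn8, Cdh1 or Cdh3.

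FPKM, a count of fragments scaled by transcript length and by sequencing depth, is a level per length, so levels can be compared between genes. The livers of day 0 held 10 members at a mean of 1 FPKM or more. Cldn2, a pore-forming claudin for cations and water, was the most abundant at 55.9 ± 8.65 FPKM (SD, n = 3), followed by the sealing claudins Cldn1 at 43.6 ± 12.3 and Cldn3 at 43.5 ± 6.75, and by Cldn12 at 29.3 ± 1.81. The order of Cldn2, Cldn1 and Cldn3 is not resolved by the spread between the mice. Cldn14, a sealing claudin best known from the inner ear, and Cldn5, the claudin of endothelium, were at 6.36 ± 2.16 and 6.09 ± 0.703. Of the cadherins, Cdh2 (N-cadherin) was at 22.4 ± 2.47 FPKM, Cdh1 (E-cadherin) at 16.3 ± 4.61, Cdh5 (VE-cadherin) at 7.96 ± 3.31 and Cdh13 (T-cadherin, a cadherin anchored in the membrane by a lipid) at 1.15 ± 0.619. The ratio of Cdh1 to Cdh2 was 0.584, 0.859 and 0.709 in the 3 livers, so N-cadherin mRNA exceeded E-cadherin mRNA in each.

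Over all 14 libraries, 14 members had a mean of at least 1 FPKM and were tested. They are the 10 named above and Cldn4, Cldn6, Cldn7 and Cldn8, which were under 1 FPKM at day 0 and passed this minimum only through groups in which they were high. For these 4 a count of calls is a description and not support for a change of the family. A further 9 members had a mean of 0.1 to 1 FPKM, and 24 were under 0.1 FPKM. The tests were made with limma on log2(FPKM + 1), in 1 fit of 11354 genes and 5 groups, and a gene counts as called when its adjusted p (Benjamini-Hochberg over all genes) is under 0.05. A log2 difference on this scale understates the change of a gene with a low level. Bulk tissue was measured, so more cells of a type and more RNA per cell cannot be told apart in any result given here.

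At day 21 none of the 14 tested members was called by limma, while 6.20% of all tested genes were called higher and 1.42% lower. At an unadjusted p under 0.05 there were 3 members. Cldn1, which was among the leading claudins of the resting liver, was at 31.9, 42.6 and 56.5 FPKM at day 0 and at 21.2, 15.5 and 13.3 at day 21. All 3 livers of day 21 lay below those of day 0, a 2.61-fold lower mean that missed the threshold in limma (log2 difference -1.32 ± 0.39, SE, adjusted p = 0.058). Cldn3 showed the same order, with 47.5, 35.7 and 47.2 FPKM at day 0 and 35.1, 19.4 and 20.4 at day 21 (-0.81 ± 0.34, adjusted p = 0.18 in limma). Cdh5 was higher in each liver of day 21 (0.79 ± 0.23, adjusted p = 0.059 in limma). Cldn1 did pass after median centring, with a lower filter and pseudocount, and in a fit of the compared groups only (adjusted p = 0.043, 0.048 and 0.019, limma). The last of these also called Cldn7 higher, and leaving out day 0 replicate C called Cdh5 higher.

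At day 45, 7 of the 14 tested members were called higher and none lower, 5 claudins (Cldn2, Cldn4, Cldn6, Cldn7 and Cldn8) and 2 cadherins (Cdh1 and Cdh5). The largest differences were those of the claudins that are scarce in the resting liver, with mean levels 10.5- to 44.1-fold above day 0. Of all tested genes 23.7% were called higher and 2.99% lower. Among the members at 1 FPKM or more at day 0, 3 of 10 were called higher, against 18.4% of all tested genes of that level. Among those under 1 FPKM at day 0 it was 4 of 4, against 75.4% of the 1050 tested genes of that level, which had to be high elsewhere to be tested. The median log2 difference of the 10 members at 1 FPKM or more at day 0 was 0.45. That of all tested genes of this level was 0.15, and that of all tested genes 0.20.

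Cldn4, a sealing claudin of ducts and of the collecting tubules of the kidney, was measured at 0.076, 0.064 and 0.240 FPKM at day 0, which is about 5 to 20 fragments per library. It was at 0.454, 0.208 and 0.810 FPKM at day 21 and at 1.8, 10.9 and 4.09 at day 45. The livers of days 100 and 200 held 9.15 and 7.66 FPKM, and the knockout livers 7.97, 11 and 2.75. All livers of day 45, of the late times and of the knockout lay above all of day 0. The log2 difference was 2.30 ± 0.47 at day 45 (adjusted p = 0.0039), 3.06 ± 0.53 at days 100 and 200 (adjusted p = 0.001) and 2.72 ± 0.47 in the knockout (adjusted p = 0.0019, limma in each case).

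Cldn7, a claudin of ductal and intestinal epithelium, followed the same course at a higher level. Its values were 0.438, 0.352 and 0.623 FPKM at day 0, 1.42, 1.30 and 1.34 at day 21, and 4.13, 13.1 and 8.10 at day 45. The late livers held 14.8 and 13.7 FPKM and the knockout livers 14.2, 28.7 and 5.17. The groups did not overlap at any time after Cre, though at day 21 the difference of 0.68 ± 0.46 was not called (adjusted p = 0.44). It was 2.57 ± 0.46 at day 45, 3.38 ± 0.51 at days 100 and 200 and 3.26 ± 0.46 in the knockout, with adjusted p of 0.0019, 5e-04 and 0.00055 in limma.

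Cldn6, an embryonic claudin that most adult epithelia lack, was at 0.282, 0.167 and 0.365 FPKM at day 0 and at 0.701, 0.655 and 0.465 at day 21. It reached 2.69, 7.93 and 5.44 FPKM at day 45, 6.05 and 5.27 in the late livers and 3.32, 7.16 and 2.69 in the knockout. Day 45 lay above day 21 in every liver, and Cldn6 was the one member called between these times (log2 difference 1.89 ± 0.31, limma adjusted p = 0.035). This call was lost under 9 of 17 alternatives, namely without a filter (limma adjusted p = 0.065), under quantile normalization (0.058), with the replicate letter as a block (0.07), in a fit of the compared groups only (0.075) and without any 1 of 5 livers (0.11 to 0.18). Against day 0 the difference was 2.23 ± 0.31 at day 45, 2.39 ± 0.35 late and 2.00 ± 0.31 in the knockout (adjusted p = 0.00068, 0.00043 and 0.0011, limma).

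Cldn8, a claudin that limits the passage of cations in the distal kidney tubule and the colon, differed from the other 3 in the knockout. It was at 0.107, 0.137 and 0.339 FPKM at day 0, 0.544, 0.447 and 0.290 at day 21, and 1.08, 3.47 and 1.58 at day 45. The late livers held 3.03 and 4.02 FPKM, while the knockout livers held 0.450, 0.685 and 1.01, all below day 45. It rose by 1.28 ± 0.24 at day 45 (adjusted p = 0.0027) and by 1.92 ± 0.27 late (adjusted p = 0.00035), and was not called in the knockout (0.52 ± 0.24, adjusted p = 0.11, limma), although a pseudocount of 0.1 gave a call there (1.49, limma adjusted p = 0.025). Under quantile normalization the call at day 45 was lost (0.65, limma adjusted p = 0.052). The difference between the knockout and day 45 itself missed the threshold (-0.76 ± 0.24, limma adjusted p = 0.061).

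**Figure D1:**
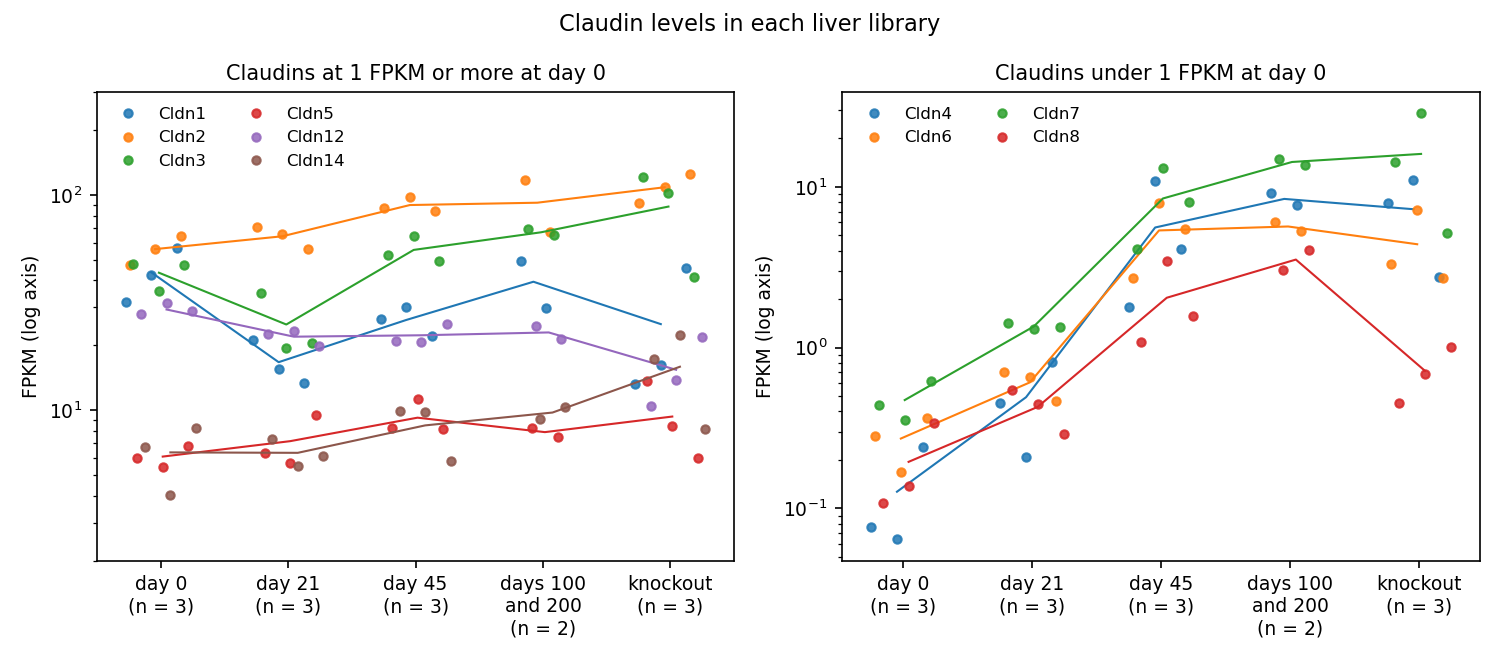
FPKM on a log axis in each of the 14 livers, by group, for the 6 claudins at 1 FPKM or more at day 0 (left) and the 4 tested claudins under it (right), 1 point per liver, with lines through the group means. The scarce claudins rise above day 0 in each liver of day 45 and later, and day 45 replicate B is the highest liver of its group for all 4 of them.

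Together the 4 scarce claudins made up 0.409 to 0.732% of the summed FPKM of all claudins at day 0, 1.86 to 2.26% at day 21 and 4.49 to 13.1% at day 45. The share was 10.6% and 13.1% in the late livers and 4.46 to 14.8% in the knockout, so they remained a minor part of the claudin mRNA of the tissue. Markers of cholangiocytes moved with them. The summed FPKM of 12 cholangiocyte markers was 53.1 to 68.2 at day 0, 149 to 211 at day 21, 426 to 1390 at day 45, 3000 at day 100 and 1980 at day 200, and 576 to 849 in the knockout. Of the 9 markers tested, 8 were called higher at day 45, all 9 at the late times and 8 in the knockout. Spp1, the most abundant of them, rose from a mean of 46.9 to 765 FPKM at day 45, and Epcam, an adhesion molecule of duct epithelium, from 1.09 to 22.5. Spp1 alone thus made up most of the sum of the 12 markers at day 0 and at day 45. Day 45 replicate B, highest in Cldn4, Cldn6, Cldn7 and Cldn8, also had the highest cholangiocyte sum of its group. That liver was likewise highest in the endothelial, stellate cell, macrophage, lymphocyte, proliferation, mesothelial and gut marker sums. It was lowest in the hepatocyte sum and not highest in the pancreas acinar and erythroid sums. The part of cholangiocytes in the rise of these claudins was not tested.

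Markers of other tissues that share these claudins were also read. Gut and gallbladder epithelium had 4 of 9 markers tested, of which Vil1 and Tff2 were called higher at day 45, at the late times and in the knockout. Vil1 averaged 0.240 FPKM at day 0, 1.93 at day 45 and 25.6 in the knockout. The other tested markers, Tff3 and Lgals4, were below day 0 without passing, at -1.03 and -0.39 at day 45 (adjusted p = 0.40 and 0.54) and -0.23 and -0.72 in the knockout (adjusted p = 0.84 and 0.16, limma). The sum of the list was 5.84 to 25.2 FPKM at day 0, 5.38 to 11.4 at day 45, 19.9 and 36.1 late and 31.8 to 55.4 in the knockout. Their part was not tested either. Of 9 pancreas acinar markers, Prss1, Try4, Cpb1 and Ctrb1 were listed at 0 in every library, as was Alb, so a listed 0 does not show absence. The 1 tested marker of that list, Cela1, was at group means of 20.3 to 31.8 FPKM and was called in none of the comparisons in the main fit, and the list summed to 14.7 to 37.3 FPKM over the livers.

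**Figure D2:**
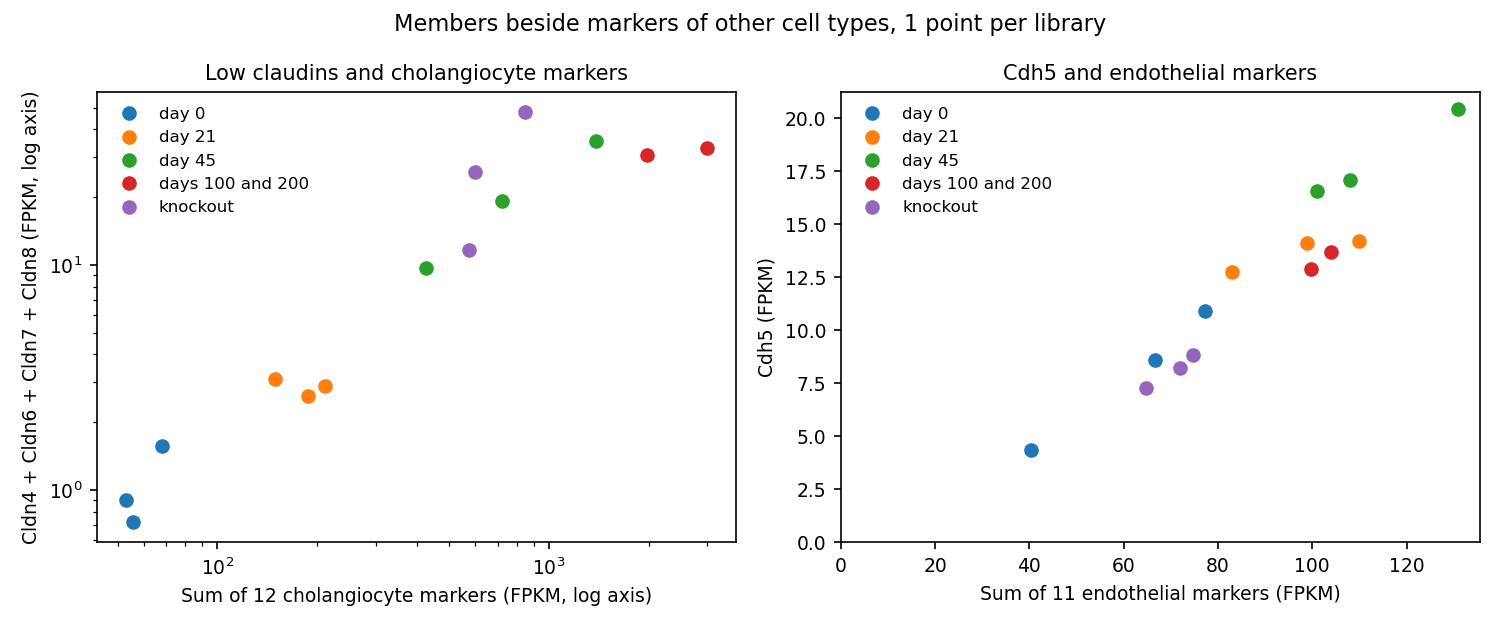
Left, the summed FPKM of Cldn4, Cldn6, Cldn7 and Cldn8 against that of 12 cholangiocyte markers, which is mostly Spp1 at day 0 and day 45, both on log axes. Right, the FPKM of Cdh5 against the summed FPKM of 11 endothelial markers on linear axes. Each point is 1 liver, and in both panels the livers of day 45 lie above and to the right of those of day 0, while the knockout livers lie with day 45 on the left and with day 0 on the right.

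The abundant claudins moved less and not all in 1 direction. Cldn2 was at 47.3, 56.0 and 64.6 FPKM at day 0, 71.0, 65.6 and 56.0 at day 21, and 86.7, 97.8 and 84.3 at day 45. The late livers held 117 and 67.0 FPKM and the knockout livers 91.8, 108 and 125. From day 45 on, each liver lay above each liver of day 0. The rise was 1.60-fold at day 45 (0.68 ± 0.21, adjusted p = 0.030), 1.64-fold late (0.66 ± 0.23, adjusted p = 0.047) and 1.94-fold in the knockout (0.94 ± 0.21, adjusted p = 0.0066, limma). When each library was centred on its median gene, Cldn2 was no longer called at day 45 (0.44, limma adjusted p = 0.12) or at the late times (0.32, limma adjusted p = 0.30). Quantile normalization ended both calls as well (limma adjusted p = 0.11 in each). The call at day 45 was also lost when any of 5 single livers was left out (limma adjusted p of 0.056 to 0.12). The late call was lost in a fit of the compared groups only (0.097) and without day 0 replicate A or B (0.14 and 0.092), and without the day 100 liver its difference was 0.27 (limma adjusted p = 0.56), whereas the call in the knockout held under all 17 alternatives.

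Cldn1 and Cldn3 both lay low at day 21 and higher at day 45. Cldn1 was at 26.4, 30.0 and 22.2 FPKM at day 45, above the livers of day 21 and below those of day 0, and neither difference was called, though a fit of the compared groups only called it lower than at day 0 (limma adjusted p = 0.048). At day 100 it stood at 49.2 FPKM, within the range of day 0, and at day 200 at 29.7, just below it. Cldn3 was at 52.8, 64.4 and 49.1 FPKM at day 45 and at 69.0 and 64.9 in the late livers, above day 0 in each, with differences of 0.35 ± 0.34 and 0.62 ± 0.38 that were not called (adjusted p = 0.53 and 0.25, limma). A fit of the compared groups only called the late difference (limma adjusted p = 0.031). Between days 21 and 45 its mean rose 2.22-fold, and this was not called either (1.16 ± 0.34, limma adjusted p = 0.14).

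Cldn12, an atypical claudin without the usual anchor for tight junction scaffolds, was the one member called lower than day 0 in the main fit with all livers. It was at 27.9, 31.3 and 28.8 FPKM at day 0, 22.6, 23.4 and 19.8 at day 21, and 20.9, 20.7 and 25.2 at day 45. The late livers held 24.5 and 21.4 FPKM and the knockout livers 10.4, 13.9 and 21.9. Every other liver lay below every liver of day 0. Only the difference of the knockout was called (-0.95 ± 0.21, limma adjusted p = 0.0066), and it was not called in a fit of the compared groups only (adjusted p = 0.072). The values after Cre lay between -0.41 and -0.34 with adjusted p of 0.21 to 0.31, though a fit of the compared groups only called it lower at day 45 (limma adjusted p = 0.046) and median centring called it lower at day 45 (-0.62, limma adjusted p = 0.044) and late (-0.68, limma adjusted p = 0.043).

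Cldn12 is on the list of predicted let-7 targets used in the study. Its 3′ end of 2582 bases (transcript of GENCODE vM1, mm9) holds the letters CTACCTC, the complement of the seed of let-7, at positions 519 and 1294 from the stop codon. Both are shown with let-7a, with the seed (bases 2 to 8) and its matches in capitals. The 8 mature let-7 microRNAs listed by RefSeq share this seed.
mmu-let-7a-5p: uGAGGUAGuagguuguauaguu
Cldn12, chr5:5507165-5507186, minus strand: aagattgctatcttCTACCTCa
Cldn12, chr5:5506390-5506411, minus strand: aaattatacctattCTACCTCt

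Of 2901 genes with a 3′ end at least this long, 15.2% held the letters on the transcript strand at least once over the same length and 1.83% held them 2 times or more. The match is a description, and let-7 was not measured here in the knockout livers, where Cldn12 fell.

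Cldn14 and Cldn5 were the remaining tested claudins. Cldn14 was at 6.75, 4.04 and 8.30 FPKM at day 0, 7.36, 5.50 and 6.14 at day 21, and 9.89, 9.78 and 5.81 at day 45. It was at 9.13 and 10.4 FPKM late and at 17.2, 22.3 and 8.14 in the knockout. It was called higher in the knockout (1.14 ± 0.33, limma adjusted p = 0.020), although replicate C lay inside the range of day 0. Leaving out day 0 replicate B or knockout replicate A or B ended this call, with limma adjusted p of 0.075 to 0.10, as did a fit of the compared groups only (0.11). Cldn5 ranged from 5.42 to 13.6 FPKM over the 14 livers and was called in none of the comparisons with all livers in the fit of 5 groups. A fit of the compared groups only called it higher at day 45 (0.52, limma adjusted p = 0.037), and its call without knockout replicate C is given further on.

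**Figure D3:**
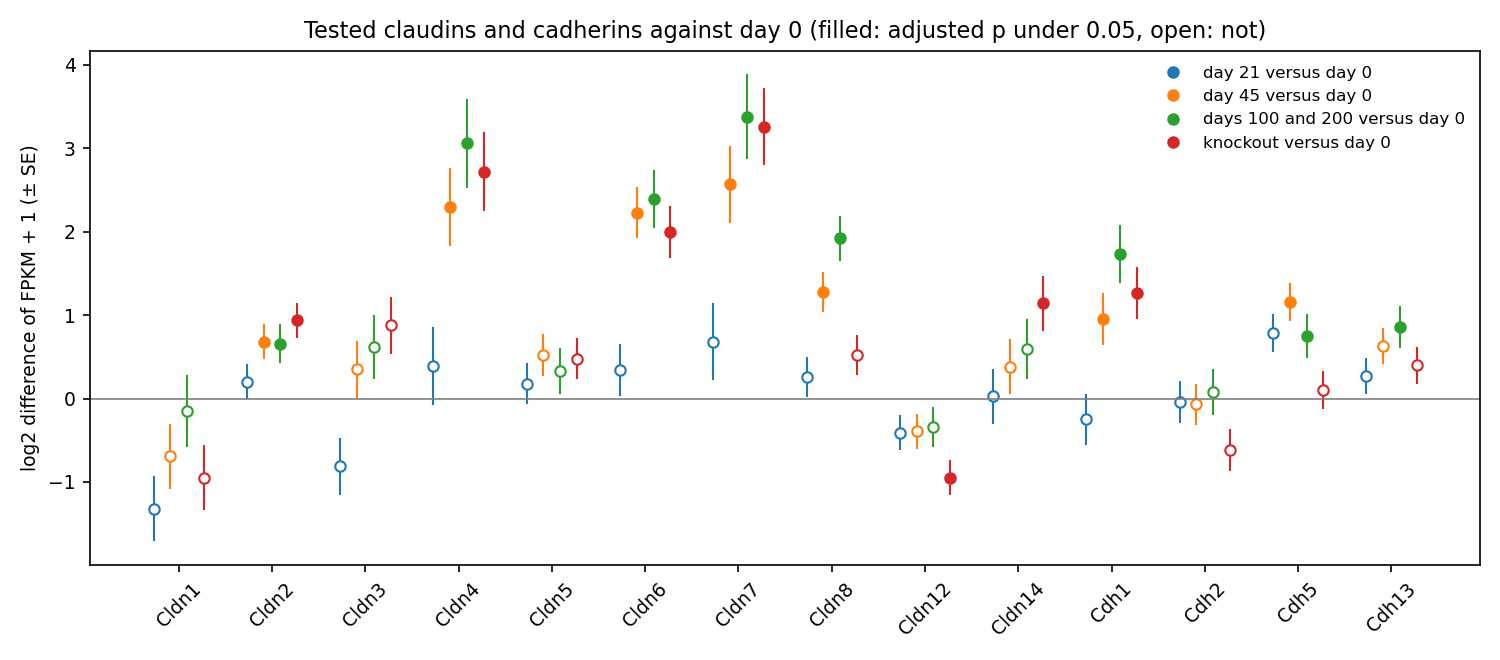
Log2 difference of FPKM + 1 from day 0 for the 14 tested members in 4 comparisons that share the day 0 livers, with SE bars; filled points passed the threshold and open points did not. Cldn4, Cldn6 and Cldn7 lie between 2.00 and 3.38 at day 45, late and in the knockout, while Cdh2 lies near 0 at each time after Cre.

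Of the 4 cadherins at 1 FPKM or more at day 0, Cdh1 was the one called at day 45, late and in the knockout. It was at 11.4, 20.6 and 16.8 FPKM at day 0, 13.7, 11.9 and 14.0 at day 21, and 21.4, 49.2 and 29.7 at day 45. The livers of days 100 and 200 held 72.0 and 41.6 FPKM and those of the knockout 31.5, 52.3 and 37.8. From day 45 on every liver was above day 0, by 2.05-fold in the mean at day 45 (0.95 ± 0.31, adjusted p = 0.040), 3.49-fold late (1.73 ± 0.35, adjusted p = 0.0027) and 2.49-fold in the knockout (1.27 ± 0.31, adjusted p = 0.010, limma). The call at day 45 was not stable. It was lost under both other scalings, without any filter, in a fit of the compared groups only and when any of 4 single livers was left out, with limma adjusted p of 0.053 to 0.19, and that of the late times was lost without the day 100 liver (1.34, adjusted p = 0.057).

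Cdh2 was not called at any time. It was at 19.6, 24.0 and 23.7 FPKM at day 0, 22.1, 23.3 and 19.8 at day 21, 19.7, 22.5 and 21.7 at day 45, and 27.2 and 20.7 late. Its log2 differences after Cre were -0.04 ± 0.25, -0.07 ± 0.25 and 0.08 ± 0.28. In the knockout Cdh2 was at 10.0, 11.8 and 24.1 FPKM (-0.62 ± 0.25, limma adjusted p = 0.073), and its call without replicate C is given further on. The ratio of Cdh1 to Cdh2 was 0.511 to 0.706 at day 21 and 1.08, 2.19 and 1.37 at day 45. It was 2.65 and 2.01 in the late livers and 3.14, 4.45 and 1.57 in the knockout. E-cadherin mRNA thus exceeded N-cadherin mRNA in each liver from day 45 on and in none before.

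Cdh5, the cadherin of endothelial junctions, was at 4.38, 8.59 and 10.9 FPKM at day 0, 14.2, 14.1 and 12.8 at day 21, and 16.6, 20.4 and 17.1 at day 45. It was at 13.7 and 12.9 FPKM late and at 8.21, 8.84 and 7.29 in the knockout. It rose 2.27-fold at day 45 (1.16 ± 0.23, adjusted p = 0.0034) and 1.67-fold late (0.75 ± 0.26, adjusted p = 0.043), and was not called in the knockout (0.10 ± 0.23, adjusted p = 0.76, limma). The knockout lay below day 45 in every liver, and Cdh5 was the one member called between them (-1.06 ± 0.23, limma adjusted p = 0.021). The call at day 45 held under all 17 alternatives. The late call was lost under both other scalings, in a fit of the compared groups only and without any 1 of 4 livers. The call between the knockout and day 45 was lost after median centring (-0.85, limma adjusted p = 0.056), in a fit of the compared groups only and without any 1 of 4 livers (limma adjusted p of 0.058 to 0.085).

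Endothelial markers were read beside Cdh5. The summed FPKM of 11 of them, a list that does not hold Cdh5, was 40.4 to 77.2 at day 0, 82.9 to 110 at day 21, 101 to 131 at day 45, 104 and 99.7 late and 64.7 to 74.6 in the knockout. At day 45, 4 of 11 were called higher (Tie1, Pecam1, Eng and Vwf), against 23.7% of all tested genes, and 7 did not pass, and in the knockout Eng was called higher and Lyve1 lower. Pecam1, an adhesion molecule of endothelium, was at a mean of 8.28 FPKM at day 0, 18.6 at day 45 and 9.57 in the knockout. The part of endothelial cells in the rise of Cdh5 was not tested.

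Cdh13 was at 0.441, 1.58 and 1.44 FPKM at day 0, 1.79, 1.75 and 1.06 at day 21, 1.91, 2.25 and 2.57 at day 45, and 2.47 and 3.11 late. The knockout livers held 1.72, 1.39 and 2.18 FPKM. In the fit of 5 groups it was called higher at the late times alone (0.86 ± 0.25, limma adjusted p = 0.019), with 0.63 ± 0.22 at day 45 (limma adjusted p = 0.052). A minimum of 0.1 FPKM or leaving out day 0 replicate B called it at day 45 as well (limma adjusted p = 0.044 and 0.040). Day 0 replicate A was the lowest of the 14 livers, and without it the late difference was 0.59 (limma adjusted p = 0.057). The late call was also lost in a fit of the compared groups only (limma adjusted p = 0.051), without either late liver and under both other scalings, with 0.08 after quantile normalization (limma adjusted p = 0.84).

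At days 100 and 200, 8 of 14 tested members were called higher and none lower, when 28.4% of all tested genes were called higher and 3.21% lower. These were the 7 of day 45 and Cdh13. Of the 10 members at 1 FPKM or more at day 0, 4 were called higher, against 22.8% of all tested genes of that level. The liver of day 100 gave the higher value of the pair for Cldn1, Cldn2 and Cdh1. With 1 liver at each of these times, the difference between days and between mice cannot be told apart. Without the day 100 liver the count was 4 and without day 0 replicate A it was 5, and Cldn4, Cldn6, Cldn7 and Cldn8 were called in each of these.

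Between day 45 and day 21 0.273% of all tested genes were called higher and 0% lower, and Cldn6 was the 1 member called. Like the other scarce claudins it was tested only through the groups in which it is high, and among the 1050 tested genes under 1 FPKM at day 0 the share called higher was 1.52%. Cldn4, Cldn7 and Cldn8 each lay above day 21 in all 3 livers of day 45 and had log2 differences of 1.91 ± 0.47, 1.89 ± 0.46 and 1.02 ± 0.24, with adjusted p of 0.10, 0.10 and 0.099 in limma. Leaving out day 45 replicate A, the lowest liver of its group for these claudins, raised the count from 1 to 5, and leaving out any other single liver of these times brought it to 0.

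In the germline knockout 6 of 14 tested members were called higher (Cldn2, Cldn4, Cldn6, Cldn7, Cldn14 and Cdh1) and Cldn12 lower. Of all tested genes 19.3% were called higher and 14.5% lower. Among the 10 members at 1 FPKM or more at day 0, 3 were higher and 1 lower, against 15.4% and 15.9% of all tested genes of that level. Among the 4 under it, 3 were higher, against 57.8%. Without replicate C, 8 members were called higher and 3 lower, when the shares over all genes were 31.7% and 30.7%. The added ones were Cldn3 (1.35 ± 0.23, adjusted p = 0.00043) and Cldn5 (0.73 ± 0.23, adjusted p = 0.014) on the higher side, and Cldn1 (-1.47 ± 0.27, adjusted p = 0.00067) and Cdh2 (-0.98 ± 0.15, adjusted p = 0.00016, limma) on the lower. In these 4 genes replicate C was in or next to the range of day 0. Cldn1 was at 13.3, 16.3 and 45.7 FPKM in knockout replicates A, B and C, Cldn3 at 121, 102 and 41.3, and Cdh2 at 10.0, 11.8 and 24.1. Cldn5 was at 13.6, 8.41 and 6.0.

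The calls of Cldn2, Cldn4, Cldn6, Cldn7, Cldn12, Cldn14 and Cdh1 held without replicate C. Its erythroid marker sum was 175 FPKM, against 839 and 673 in A and B and 122 to 159 at day 0. Its gut and gallbladder epithelium sum was 31.8 FPKM, against 49.3 and 55.4 in A and B and 5.84 to 25.2 at day 0. Their part in these differences was not tested. Leaving out knockout replicate B ended the call of Cdh1 (1.07, limma adjusted p = 0.056).

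**Figure D4:**
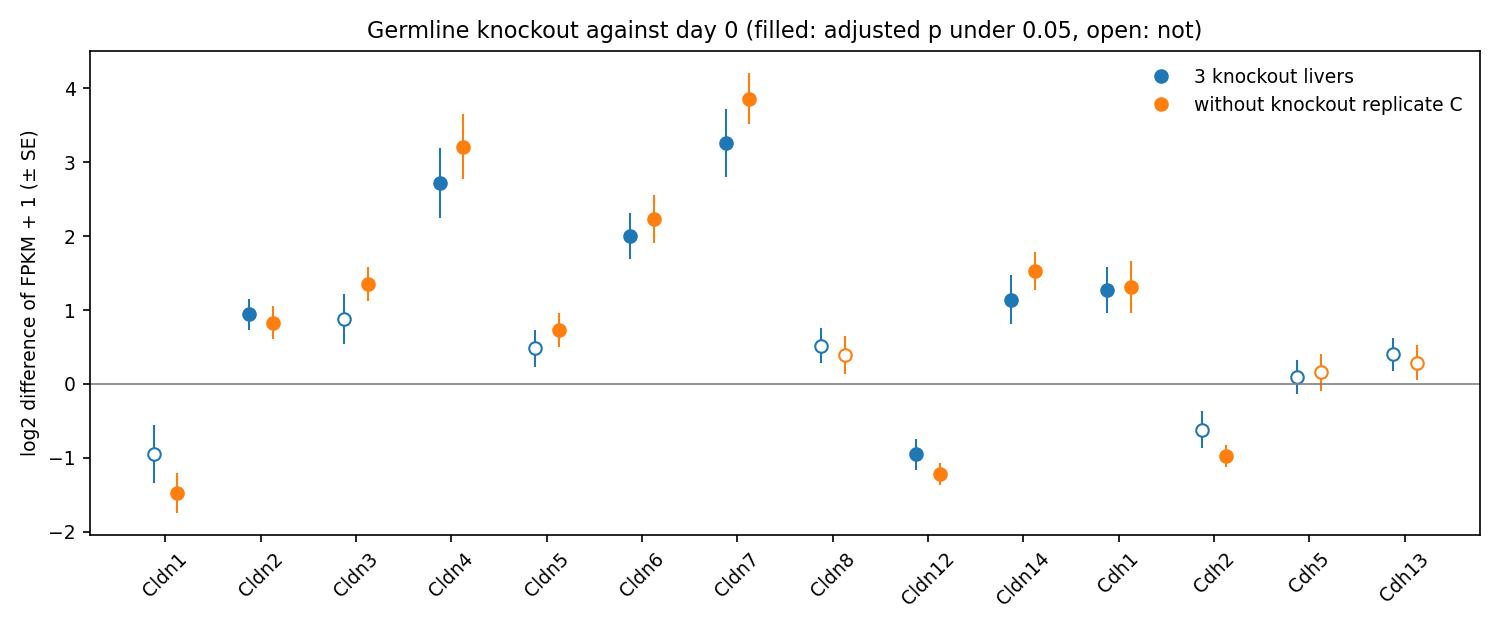
Log2 difference of FPKM + 1 between the germline knockout and day 0 for the 14 tested members, with SE bars, over the 3 knockout livers and without replicate C; filled points passed the threshold. Cldn1, Cldn3, Cldn5 and Cdh2 are open with all 3 livers and filled without replicate C.

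Set against day 45, 1.21% of all tested genes were called higher in the knockout and 8.23% lower, and among the members Cdh5 was called lower and none higher. Cldn4, Cldn6, Cldn7 and Cdh1 did not pass between these groups, with differences of 0.42 ± 0.47, -0.23 ± 0.31, 0.69 ± 0.46 and 0.32 ± 0.31. Without replicate C, Cldn3 (1.00), Cldn7 (1.29) and Cldn14 (1.15) were called higher in the knockout than at day 45, and Cldn1 (-0.78), Cldn8 (-0.88), Cldn12 (-0.83), Cdh2 (-0.91) and Cdh5 (-0.99) lower, with limma adjusted p of 0.00041 to 0.031, when 14.6% of all tested genes were called higher and 37.5% lower. Knockout and Cre-treated mice differ in the time without miR-122, in the virus and in the floxed allele, which cannot be told apart.

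The 9 members with a mean of 0.1 to 1 FPKM were tested in an added fit that kept 14104 genes averaging 0.1 FPKM or more and used log2(FPKM + 0.1), a choice made after the values had been seen. Of these, Cldn15, Cdh3, Cdh11 and Cdh18 were above 0.1 FPKM at day 0, at means of 0.745, 0.211, 0.108 and 0.151, and the other 5 passed this minimum only through groups in which they are high. At day 21 none of the 9 was called higher, with 8.47% of all genes in this fit. At day 45 it was 5 (Cldn10, Cldn23, Cdh3, Cdh6 and Cdh11) with 29.4% of all genes, and late 6 (these and Cdh17) with 34.6%. In the knockout, with replicate C included, it was 6 (Cldn10, Cldn23, Cdh3, Cdh4, Cdh6 and Cdh17) with 22.3%. All genes here include those averaging 1 FPKM or more, and no share was taken for genes of 0.1 to 1 FPKM alone. The counts are thus a description and do not set these members apart from genes of their level. Of the members above 0.1 FPKM at day 0, Cdh3 and Cdh11 were called higher at day 45 and late, and only Cdh3 in the knockout.

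Cdh3 (P-cadherin), a classical cadherin of basal and embryonic epithelium and the gene next to Cdh1, was at 0.326, 0.125 and 0.183 FPKM at day 0 and 0.350, 0.255 and 0.315 at day 21. It was at 0.665, 1.69 and 0.972 FPKM at day 45, 1.66 and 1.57 late, and 1.04, 1.62 and 0.559 in the knockout. Each liver from day 45 on lay above day 0, and on the log2(FPKM + 0.1) scale it rose by 1.92 ± 0.38, 2.51 ± 0.43 and 1.86 ± 0.38 (adjusted p = 0.0027, 0.00074 and 0.0039, limma).

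Cdh6 and Cdh11 are type II cadherins, known from the developing kidney and from mesenchymal cells. Cdh6 was at 0.012 to 0.074 FPKM at day 0 and at 0.410 to 1.40 at day 45 (2.56 ± 0.50, limma adjusted p = 0.0024). Cdh11 was at 0.080 to 0.128 FPKM at day 0, 0.235 to 0.911 at day 45, and 1.44 and 1.26 late, and it was not called in the knockout (0.78 ± 0.36, limma adjusted p = 0.10). Stellate cell and fibroblast markers summed to 146 to 199 FPKM at day 0, 405 to 678 at day 45, 670 and 679 late and 217 to 332 in the knockout, with 9 of 10 tested markers called higher at day 45, all 10 late and 6 in the knockout. Their part in the rise of Cdh11 was not tested.

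Cdh17, the liver-intestine cadherin, was listed at 0 in 2 of the day 0 livers and at 0.011 FPKM in the last, about 2 fragments. It was at 0.034 to 0.235 FPKM at day 45, at 1.83 on day 100 and 0.411 on day 200, and at 0.292, 1.12 and 0.094 in the knockout. Cldn10, an ion pore of the kidney tubule, was at 0.026 to 0.053 FPKM at day 0, 0.197 to 0.509 at day 45, 0.741 on day 100 and 1.83 on day 200. Cldn23 was at 0 to 0.041 FPKM at day 0 and at 0.199 to 0.414 at day 45. Of the remaining members of this level, Cdh4 (R-cadherin) ranged from 0.076 to 0.638 FPKM over the 14 livers, Cldn15 from 0.221 to 1.57 and Cdh18 from 0.055 to 0.270. Cdh18 was at 0.055, 0.064 and 0.057 FPKM in the knockout, the lowest of the 14 livers, and was called lower there than at day 45 in the added fit (-0.92 ± 0.26, limma adjusted p = 0.044), though not against day 0 (-0.63 ± 0.26, limma adjusted p = 0.075).

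**Figure D5:**
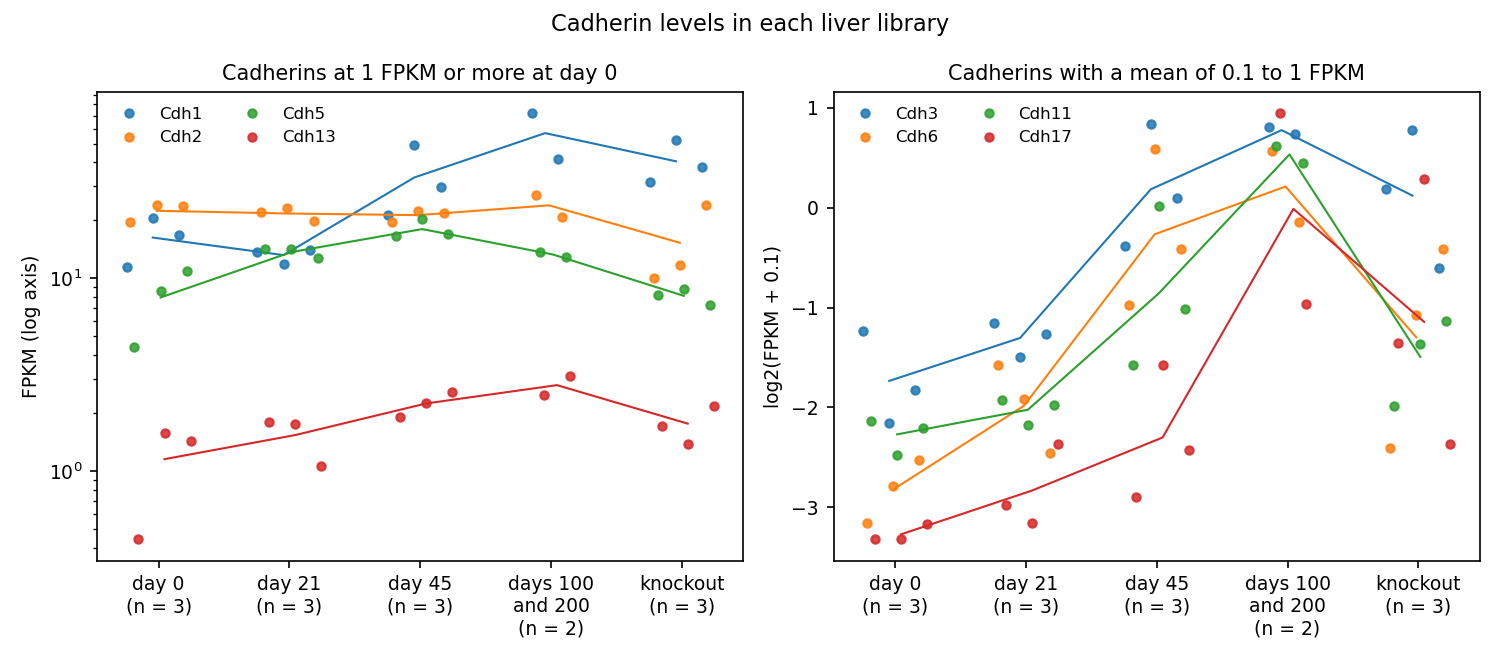
Left, FPKM on a log axis of the 4 cadherins at 1 FPKM or more at day 0. Right, log2(FPKM + 0.1) of Cdh3, Cdh6, Cdh11 and Cdh17. Each point is 1 liver and the lines join the means of the plotted values on the right and of FPKM on the left. Cdh1 crosses above Cdh2 at day 45, and Cdh5 is highest at day 45 and within the range of day 0 in the knockout.

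The 24 members under 0.1 FPKM were tested only in the alternative without a filter, which called Cdh24 higher at day 45 (0.11, limma adjusted p = 0.013) and late (0.16, limma adjusted p = 0.0017) and Cdh9 late (0.03, limma adjusted p = 0.040). Cldn17, Cldn19 and Cldn24 were listed at 0 in every library. Of the kidney claudins Cldn16 reached 0.019 FPKM at most, and Cldn18 of lung and stomach 0.048. The other claudins of this level peaked at 0.064 (Cldn9), 0.069 (Cldn11), 0.027 (Cldn13), 0.171 (Cldn20) and 0.023 FPKM (Cldn22). Among the cadherins Cdh24 reached 0.196 FPKM, Cdh15 of muscle 0.134 and Cdh16 of kidney 0.112. Cdh7, Cdh8, Cdh9, Cdh10, Cdh12, Cdh19, Cdh20, Cdh22, Cdh23, Cdh26 and Cdh29, most of them known from the nervous system or the inner ear, stayed at or below 0.052 FPKM in every liver.

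The partners of the members in the junctions were read from lists. Of 30 tight junction partners 27 were tested. At day 45, 9 were called higher and none lower, against 23.7% of all tested genes, led by Ocln (occludin, a strand protein; 1.27 ± 0.31, adjusted p = 0.0089) and Amot (angiomotin; 1.08 ± 0.24, adjusted p = 0.0058, limma), late 13 and none (28.4% of all tested genes higher), and in the knockout 7 and 1 (Mpdz; 19.3% higher and 14.5% lower). At day 21 Amot was called higher and Tjp3, a scaffold of the tight junction plaque, lower (-1.23, limma adjusted p = 0.016). Their median log2 difference at day 45 was 0.44, and that of all tested genes 0.20.

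Markers of other cell types were read in the same way, beside the shares of all tested genes called higher of 6.20% at day 21, 23.7% at day 45, 28.4% late and 19.3% in the knockout. Of 9 macrophage markers tested, 3 were called higher at day 21, 9 at day 45, 5 late and 4 in the knockout, and of 9 lymphocyte markers 8, 8, 8 and 4. Lyz2 of macrophages rose by 1.65 and Igj of plasma cells by 5.03 at day 45 (adjusted p = 0.0061 and 0.00057, limma). Of 6 proliferation markers 0, 6, 6 and 2 were called higher, with Mcm2 at 1.67 and Top2a at 1.61 at day 45 (adjusted p = 0.001 and 0.0053, limma). The stellate cell genes Col3a1 and Col1a1 rose by 3.12 and 2.73 (adjusted p = 0.00057 and 0.0026, limma). Of the mesothelial markers Gpm6a was called higher late, and no erythroid marker was called against day 0. Their part in the results of the claudins and cadherins was not tested.

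Of 21 catenins and adherens junction partners 16 were tested, and 5 were called higher at day 45 (Plekha7, Jup, Cttn, Ctnnb1 and Ctnna1), 9 late and 3 in the knockout (Jup, Cttn and Arvcf). The shares of all tested genes were 23.7%, 28.4% and 19.3%, so the counts at day 45 and in the knockout are near those of genes at large. Jup (plakoglobin), which links cadherins to the cytoskeleton, rose by 1.21 ± 0.28 (adjusted p = 0.0078) and Plekha7 by 0.89 ± 0.19 at day 45 (adjusted p = 0.0043, limma). None was called lower at these times, and Pvrl1 was called lower at day 21. Ctnnb1 and Ctnna1, the beta- and alpha-catenins, rose by 0.67 and 0.48 at day 45 (adjusted p = 0.025 and 0.034, limma).

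Of the 20 desmosome and gap junction genes 11 were tested, with 4 called higher at day 45 (Ppl, Gja1, Gja4 and Pkp3), 5 late and 4 in the knockout, against 23.7%, 28.4% and 19.3% of all tested genes. Ppl, a desmosomal plaque protein, rose by 2.15 ± 0.35 (adjusted p = 0.0013) and Gja1 (connexin 43) by 1.84 ± 0.34 at day 45 (adjusted p = 0.0022, limma). Of 16 regulators and markers of the epithelial-mesenchymal transition 10 were tested. At day 45 Ehf, Vim, Elf3 and Snai1 were called higher and none lower, 4 of 10 against the same 23.7%. Ehf and Elf3 are epithelial transcription factors, Vim is a filament protein of mesenchymal cells, and Snai1 is a repressor that binds the E-box letters shown above. Snai1 rose by 0.92 (limma adjusted p = 0.016) at day 45.

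Over all tested genes the calls leaned to the higher side, and the lean depended on the scaling. In the values as deposited, 2688 genes were called higher and 339 lower at day 45, after median centring 1644 and 795, and after quantile normalization 1097 and 915. At the late times the pairs were 3227 and 365, 1785 and 993, and 1281 and 1305. At day 21 they were 704 and 161, 589 and 191, and 354 and 177, and in the knockout 2191 and 1642, 2173 and 1952, and 1780 and 2148. Against day 45 the knockout had 137 higher and 935 lower, then 186 and 219, and 261 and 214. The median log2 difference of all genes was 0.20 at day 45, 0.31 late and -0.23 between the knockout and day 45. The rises of Cldn4, Cldn6, Cldn7 and Cdh1 at day 45 and late exceed it under each scaling, though that of Cdh1 at day 45 was not called under either other scaling. For Cldn4, Cldn6 and Cldn7, tested only through groups in which they are high, this is a description. Tested genes under 1 FPKM at day 0 had medians of 0.91 at day 45 and 1.24 late in the values as deposited.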

How the data were processed

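Poly-A RNA of 14 livers was sequenced as paired ends by the authors, aligned to mm9 with TopHat and turned into FPKM with Cufflinks 2.2.1 under upper-quartile scaling, without ribosomal, snoRNA and mitochondrial sequences. The deposited FPKM table holds no counts, so fragment numbers are estimates from the step of its lowest values. The small RNA table deposited by the authors (Bowtie 0.12.7) is a score (RPM with 1 added) and served only for miR-122.

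Groups were taken from the labels. Genes averaging 1 FPKM or more were tested on log2(FPKM + 1) with limma 3.58.1 in R 4.3.3, in 1 fit of 5 groups with eBayes trend and Benjamini-Hochberg adjustment over 11354 genes, with a threshold of 0.05. The method used by the study needs the reads. The scripts were tested on simulated data. Each mouse gave 1 library. The p-values of limma rest on 1 spread between mice pooled over the 5 groups. In it the late group mixes mouse with time after Cre, and the knockout group includes replicate C. The members and lists were chosen with earlier results of these data known. Members past the threshold and the 5 most abundant claudins and cadherins of day 0 are given by library, and of each list the 2 largest rises and falls at day 45 and the most abundant marker. Where a symbol had several rows, the sum was used. Replicate letters do not mark shared animals. Deviations of same-lettered livers correlated at 0.27, 0.24 and 0.50 between days 21 and 45, so a fit with the letter as a block is given for that comparison. Over all pairs of groups, the liver of the same letter was the best match in 12 of 36 checks, which does not show that the letters pair livers. The blocked fit, in which Cldn6 was not called, is an alternative, and the main calls come from the fit without the block. Alternatives changed the pseudocount, filter, scaling, variance model, groups in the fit and single livers.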

Additional observations from a re-analysis of the deposited data

Results flagged for a closer look

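A pair of results differed between groups by a test of the difference itself in limma. Cldn6 was higher at day 45 than at day 21 by 1.89 on the log2 scale (adjusted p = 0.035), in 3 of 3 livers. Cdh5 differed between the knockout and day 45 by -1.06 (adjusted p = 0.021) and was lower in 3 of 3 knockout livers. Cldn6 lost its call under 9 of 17 alternatives and Cdh5 under 6 of 17. No group has 4 or more livers, so single livers were not tested for standing apart.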

How the results depend on the processing

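The calls of Cldn4, Cldn6 and Cldn7 against day 0 held under every alternative at day 45, late and in the knockout, and no result changed direction while called. These 3 claudins passed the main filter only through groups in which they are high, so this is a description. Of the 1050 tested genes under 1 FPKM at day 0, 75.4% were called higher at day 45, 83.2% late and 57.8% in the knockout. Main counts of members called higher and lower were 0 and 0 at day 21, 7 and 0 at day 45, 8 and 0 late, 6 and 1 in the knockout, 1 and 0 for day 45 against day 21, and 0 and 1 for the knockout against day 45. The cause of each change was not tested, except that lower filters admit more members. With no filter, 16 were higher late, 0 at day 45 against day 21, and 2 were lower in the knockout against day 45. With a mean of at least 0.1 FPKM, 11 were higher at day 45 and 14 late. With a pseudocount of 0.1 as well, chosen after seeing the data, 1 was lower at day 21, 12 were higher at day 45, 14 late, 13 in the knockout and 3 at day 45 against day 21, and 2 were lower in the knockout against day 45. After median centring, 1 was lower at day 21, 1 at day 45 and 1 late, 5 were higher late, and 0 were lower in the knockout against day 45. After quantile normalization, 4 were higher at day 45, 5 late and 0 at day 45 against day 21. In fits of the compared groups only, 1 was higher and 1 lower at day 21, 2 were lower at day 45, 0 were lower in the knockout, 0 higher at day 45 against day 21 and 0 lower in the knockout against day 45.

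Leaving out 1 liver at a time gave 0 to 1 higher at day 21, 5 to 7 at day 45, 4 to 8 late, 4 to 8 higher and 1 to 3 lower in the knockout, 0 to 5 higher at day 45 against day 21, and 0 to 3 higher and 0 to 5 lower in the knockout against day 45. The log2 ratio of the miR-122 share then ran from -2.68 to -2.37 at day 21 and from -6.68 to -5.96 at day 45, and was -4.01 and -7.93 per read of any other microRNA.

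Deviations of livers with the same letter correlated at -0.45 to 0.50 over 18 pairs, 8 of them over 0.1, and only between days 21 and 45 did all 3 pairs exceed 0.1. With the replicate block, fitted without days 100 and 200, 0 members were called at day 45 against day 21 (Cldn6, limma adjusted p = 0.07), where calls over all genes went from 31 to 1. No other call of a member changed in the other 4 comparisons fitted, and the late comparison was not run with the block. With groups of 2 or 3 livers and 5 to 38 estimated fragments behind the scarce claudins at day 0, their low levels are imprecise.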
